A study of Caenorhabditis elegans with 6 samples.

Results

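The 10 genes described here encode small heat shock proteins of Caenorhabditis elegans: hsp-16.1, hsp-16.2, hsp-16.41, hsp-16.48, hsp-12.2, hsp-12.3, hsp-12.6, sip-1, hsp-25 and hsp-43. They were picked by symbol from the 20189 genes of the count table. The list was drawn up with results of the same drug comparison in view, so the differences of its genes between the groups are given as descriptions without a test. RNA was sequenced from whole L4 hermaphrodites, L4 being the last larval stage, and each group had 3 samples. Animals of the CHX group had been placed as eggs on plates with 500 µg/ml of cycloheximide, an inhibitor of translation elongation, and were collected after 3 days; animals of the no CHX group grew without the drug and were collected after 2 days. All animals of both groups were rpl-36A(P55Q)/mIn1 heterozygotes kept at 23 °C, so an altered ribosomal protein gene and a balancer chromosome were present in the controls as well, and there was no group without them. Drug and age differed together, and their parts cannot be told apart. Nothing in the labels tells if replicates were separate cultures, so p-values cover the spread among these libraries alone, and that spread may be technical.

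Small heat shock proteins share the alpha-crystallin domain. They assemble into oligomers that bind unfolding proteins without using ATP and hold them in a state from which HSP70-type chaperones can refold them. In C. elegans the hsp-16 genes are the classical heat-induced members and are switched on by the heat shock factor HSF-1, with DAF-16, the transcription factor of the insulin pathway, as a further activator. SIP-1 is made in oocytes and embryos, HSP-25 lies in the dense bodies and M-lines of body wall muscle, and the HSP12 proteins are short members in which little surrounds the alpha-crystallin domain.

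The libraries were shallow, with 385500 to 414781 counts in CHX samples and 313767 to 360924 in no CHX samples. Levels are given as CPM, that is, counts scaled to each library's effective size. A count of 0 over all 3 libraries of a group, with a floor of 3 counts, allows up to 2.53 CPM in CHX and up to 3.28 CPM in no CHX animals, for counting error only. Of the 20189 genes, 5641 had enough counts for edgeR's quasi-likelihood test, and 25.2% of these differed between the groups, 10.3% higher and 14.9% lower on CHX. The split depends on scaling: 579 genes were called higher and 840 lower with TMM factors, and 851 higher and 605 lower with library totals alone, and the median log2 difference over tested genes was 0.18 with library totals and 0.02 with TMM factors.

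Of the 10 genes, 7 had at least 1 count and 3 had 0 in all 6 libraries. Only sip-1, hsp-16.2, hsp-25 and hsp-43 passed the filter on low counts. This filter keeps a gene with about 26.8 CPM of raw library totals in at least 3 libraries. hsp-16.2 passed it through its no CHX libraries alone, being under that level in every CHX library. In the fit over all tested genes, 1 of the 4, sip-1, was past the threshold on the higher side and 1, hsp-16.2, on the lower side. Because the same contrast was in view when the genes were picked, nothing is read from these counts against the 25.2% of all tested genes.

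Transcripts of sip-1 dominated the family. They had 2455, 2729 and 2328 CPM in the 3 CHX libraries, against 1324, 726 and 898 CPM in the no CHX libraries. Every CHX library was above every no CHX library, and the lowest CHX value was well above the highest no CHX value. The means were 2504 ± 205 CPM in CHX and 983 ± 308 CPM in no CHX animals (SD, n = 3 each), a fitted 2.55-fold difference (log2 fold change 1.35, SE 0.15). The raw counts behind these levels were 940, 1053 and 968 in CHX and 404, 237 and 254 in no CHX libraries, so sip-1 is the member with the least counting error. In whole animals, more cells that make a transcript and more of the transcript per cell cannot be told apart.

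**Figure D1:**
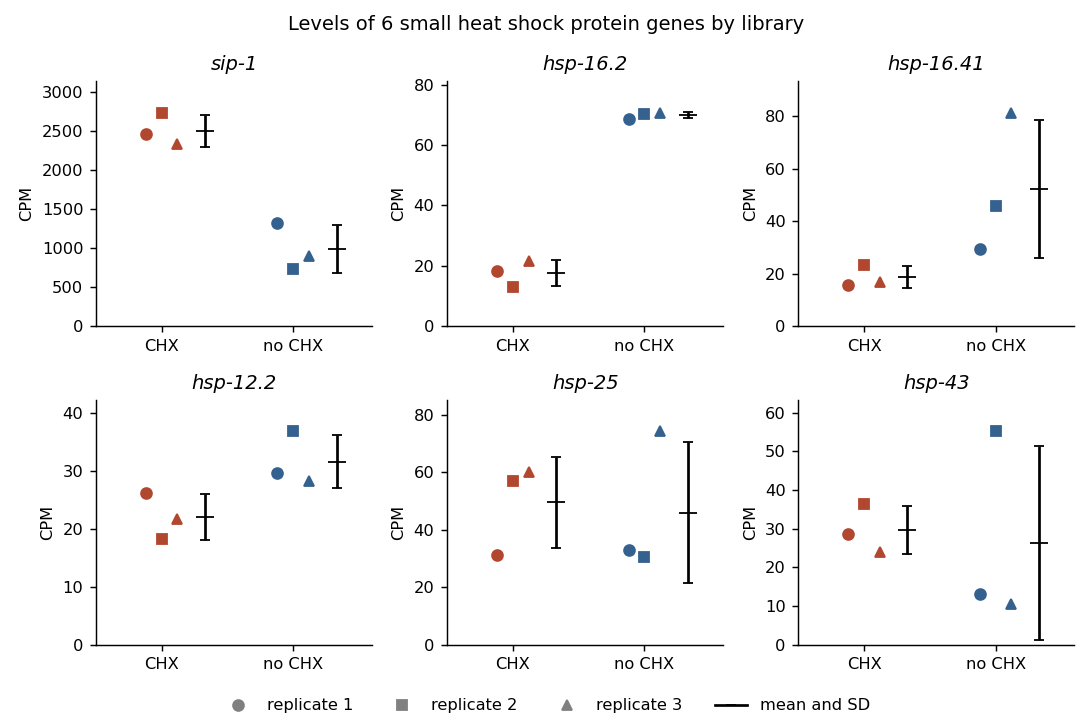
Level in CPM of 6 small heat shock protein genes in each library of the CHX and no CHX groups, with the mean and SD beside the points; each panel has its own scale. The CHX libraries of sip-1 lie between 2328 and 2729 CPM, above all no CHX libraries, those of hsp-16.2 lie between 13 and 21.6 CPM, below all no CHX libraries, and those of hsp-25 and hsp-43 overlap with the no CHX group.

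The gene lies on chromosome III from 10506106 to 10506801 on the minus strand in WBcel235 coordinates (WBGene00004798), with 2 exons and a coding length of 477 bases. Per kb of coding sequence, sip-1 stood at 5250 ± 430 CPM in CHX and 2060 ± 646 CPM in no CHX animals (SD, n = 3 each). Ordered by this level among 19897 genes with a coding length, it was number 2 in CHX animals and number 72 in no CHX animals. By library it was number 4, 2 and 3 in CHX replicates 1, 2 and 3, and number 42, 101 and 79 in the no CHX ones. The gene above it in CHX animals was eef-1A.1, for a translation elongation factor, at 5942 CPM per kb, and the gene below it was rpl-26, a ribosomal protein gene, at 5188 CPM per kb; the gap to rpl-26 was smaller than the SD of sip-1.

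**Figure D2:**
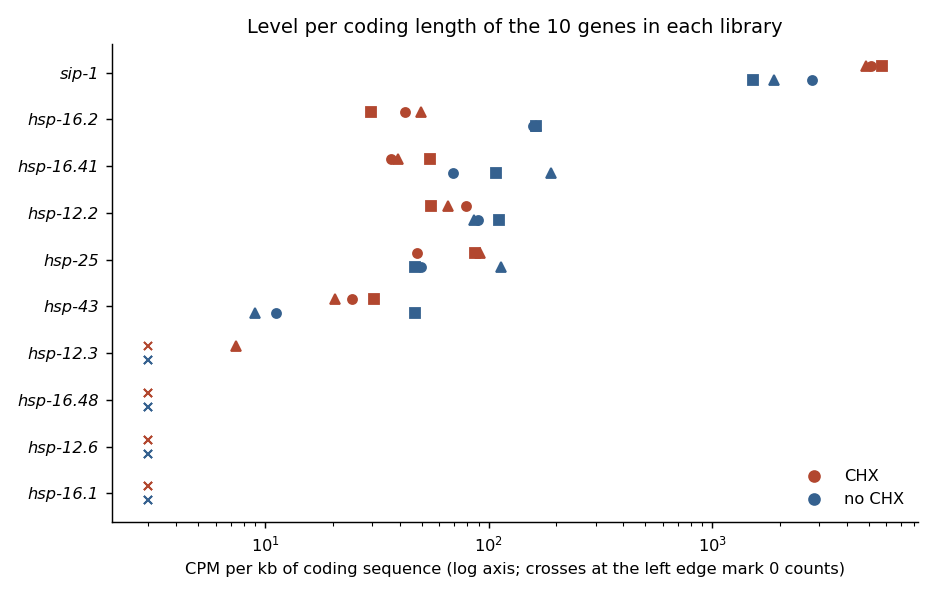
CPM per kb of coding sequence of the 10 genes in each library on a log axis, with CHX libraries in the upper row of each gene and circles, squares and triangles for replicates 1, 2 and 3; crosses mark libraries with 0 counts. sip-1 is far to the right in both groups, 6 genes hold more than 1 count, and hsp-16.1, hsp-16.48 and hsp-12.6 are at 0 in all libraries.

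The share of the family's reads that came from sip-1 was 94.8% ± 0.638 in CHX and 80.3% ± 7.10 in no CHX animals (SD, n = 3 each). The 10 genes together took 0.263% ± 0.0188 of a library's counts in CHX and 0.107% ± 0.0213 in no CHX animals. Without sip-1 the sum of the others was 138 ± 15.7 CPM in CHX and 226 ± 47.0 CPM in no CHX animals, which is the opposite order to that of sip-1.

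Levels of sip-1 and of oocyte genes were both higher on CHX. The oocyte list, like sip-1, was chosen with earlier results of these data known, so its calls are given as a description. Of 22 oocyte and eggshell genes, all kept by the filter, 22 were called higher on CHX and 0 lower. Over all tested genes 10.3% were called higher. The median of the 22 on the log2 scale was 1.44, against 0.02 over all tested genes. Their summed level ran from 15601 to 16889 CPM in CHX libraries and from 4732 to 6409 CPM in no CHX libraries. The eggshell gene cpg-1 rose 3.46-fold (log2 fold change 1.79, SE 0.12, adjusted p 8.41e-12), cbd-1, for a chitin-binding eggshell protein, rose 2.42-fold (adjusted p 1.09e-08), and cpg-2 rose 2.70-fold (adjusted p 2.28e-08). As a share of the summed oocyte level, sip-1 stood at 15.7, 16 and 14.4% in CHX libraries and at 20.7, 15.3 and 14.3% in no CHX libraries. These shares overlapped between the groups and averaged 15.4% ± 0.934 in CHX and 16.8% ± 3.43 in no CHX animals (SD, n = 3 each), and no CHX replicate 1 was highest. The part of the oocyte genes in the sip-1 difference was not tested.

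Early embryo transcripts were low in both groups, with overlapping sums. Of 6 such genes 3 had a count and none passed the filter; tbx-38, end-3 and med-2 were at 0 in all libraries, and the summed level ran from 18.3 to 25.9 CPM in CHX and from 18.4 to 42.6 CPM in no CHX libraries. The most abundant, pes-10, averaged 21.1 ± 5.15 CPM in CHX and 27.5 ± 10.7 CPM in no CHX animals (SD, n = 3 each). The neighbours of sip-1, picked by position, did not share its level. On its left, urm-1 lies 206 bases away and averaged 3.40 ± 1.55 CPM in CHX and 1.18 ± 2.04 CPM in no CHX animals. On its right, 313 bases away, sly-1 averaged 63.5 ± 15.4 CPM in CHX and 86.8 ± 13.5 CPM in no CHX animals, without a call (adjusted p 0.343).

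**Figure D3:**
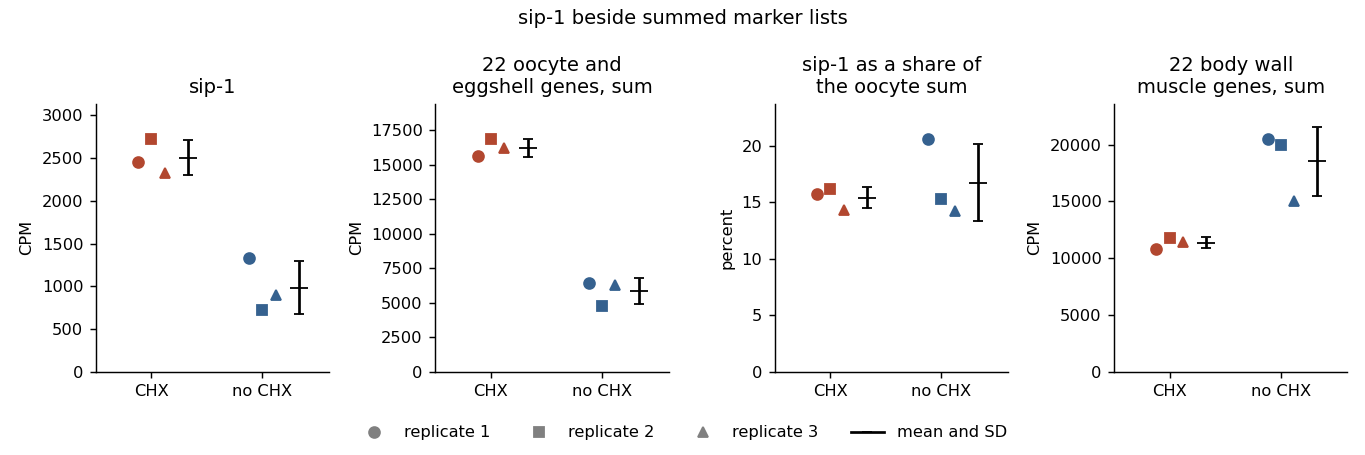
Level of sip-1, summed level of 22 oocyte and eggshell genes, sip-1 as a percentage of that sum, and summed level of 22 body wall muscle genes, in each library of the CHX and no CHX groups with mean and SD. sip-1 and the oocyte sum are both higher in all CHX libraries, the share of sip-1 overlaps between the groups, and the muscle sum is lower in all CHX libraries.

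The hsp-16 genes that could be counted had lower levels on CHX. hsp-16.2 had 18.3, 13 and 21.6 CPM in CHX libraries, against 68.8, 70.4 and 70.7 CPM in no CHX libraries. The no CHX values lay close together and the groups did not overlap. Means were 17.6 ± 4.38 CPM in CHX and 69.99 ± 1.01 CPM in no CHX animals (SD, n = 3 each), a fitted 3.9-fold lower level on CHX (log2 fold change -1.96, SE 0.46). The values rest on 21 counts over the CHX libraries and 64 over the no CHX libraries, and the ratio of summed counts scaled to effective library sizes was 0.253 (95% exact counting interval 0.147 to 0.420). The narrow spread between no CHX libraries is below what counts of 20 to 23 per library carry by themselves. With raw library totals the no CHX mean was 62.3 CPM.

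hsp-16.41 lies beside hsp-16.2 in the opposite orientation. It had 15.7, 23.3 and 16.8 CPM in CHX libraries, against 29.5, 45.9 and 81.3 CPM in no CHX libraries. The groups did not overlap, but the no CHX libraries were spread widely, with replicate 3 highest. Means were 18.6 ± 4.13 CPM in CHX and 52.2 ± 26.5 CPM in no CHX animals (SD, n = 3 each), and the ratio of summed counts, 22 in CHX over 47 in no CHX, was 0.361 (95% exact counting interval 0.207 to 0.612). The gene missed the filter; fitted with every gene that had a count, its log2 fold change was -1.41 (SE 0.55). Both genes of the pair summed to between 33.9 and 38.5 CPM in CHX libraries and between 98.3 and 152 CPM in no CHX libraries. Per kb of coding sequence, hsp-16.2 stood at 40.5 ± 10.1 CPM in CHX and 161 ± 2.31 CPM in no CHX animals, and hsp-16.41 at 43.4 ± 9.62 CPM in CHX and 122 ± 61.7 CPM in no CHX animals. The means of the pair lay within the SD of either gene in CHX animals, and within that of hsp-16.41 alone in no CHX animals.

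The 6 hsp-16 genes of the table lie at 2 loci of chromosome V. hsp-16.2 (WBGene00002016, 1804334 to 1804971, minus strand) and hsp-16.41 (WBGene00002018, 1805178 to 1805875, plus strand) are divergent, with 206 bases between the transcripts. The other locus holds hsp-16.1 (WBGene00002015, 9087293 to 9087782, minus strand) and hsp-16.48 (WBGene00002019, 9088131 to 9088617, plus strand), 348 bases apart, and a second divergent pair, hsp-16.49 and hsp-16.11, to the right. All 6 genes have 2 exons. The coding lengths are 435 bases for hsp-16.1, hsp-16.11 and hsp-16.2 and 429 bases for hsp-16.41, hsp-16.48 and hsp-16.49.

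All 4 genes of the second locus had 0 counts in every library. hsp-16.1 and hsp-16.11 are close copies of each other, as are hsp-16.48 and hsp-16.49, and how the authors counted reads that match several places is not given in the sources used here. A value of 0 for these copies therefore does not show that they were silent. Of all 20189 genes, 31.2% were at 0 in every library. The heat-induced HSP70 genes F44E5.4 and F44E5.5, close copies of each other too, were also at 0 throughout. Flanking genes outside the hsp-16 loci were low as well: srt-41 and F36H9.10, to the left of hsp-16.2, had no count, and srt-42, to the right of hsp-16.41, averaged 0 CPM in CHX and 1.02 ± 1.77 CPM in no CHX animals.

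**Figure D4:**
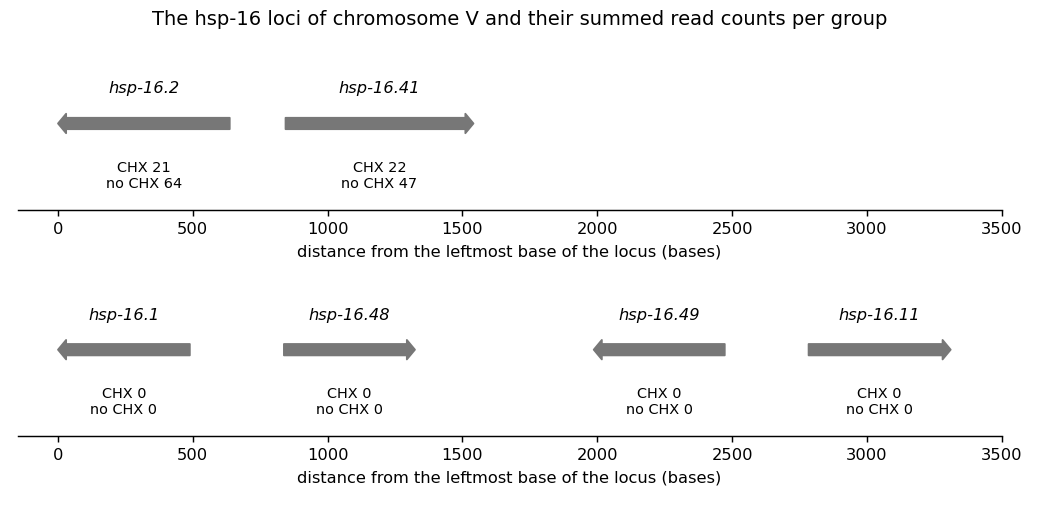
Maps of the 2 hsp-16 loci of chromosome V to scale, with arrows for transcripts in their direction and the horizontal axis in bases from the leftmost base of each locus; numbers are read counts summed over the 3 libraries of a group. hsp-16.2 has 21 counts in CHX and 64 in no CHX, hsp-16.41 has 22 in CHX and 47 in no CHX, and the 4 genes of the lower locus have 0.

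Among the HSP12 genes only hsp-12.2 could be followed. It is a member of the class known for not being induced by heat, and lies on chromosome III from 8138090 to 8139631 on the plus strand (WBGene00002011). It had 26.1, 18.1 and 21.6 CPM in CHX libraries, against 29.5, 36.7 and 28.3 CPM in no CHX libraries. The CHX libraries were lower, but by little, and with raw library totals the groups overlapped. Means were 22 ± 4.0 CPM in CHX and 31.5 ± 4.58 CPM in no CHX animals (SD, n = 3 each). On 26 counts in CHX and 29 in no CHX libraries, the ratio of scaled counts was 0.692, with a 95% exact counting interval of 0.392 to 1.22. The end of the gene overlaps C14B9.8 on the other strand by 22 bases, and the use of strand in counting is not given.

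hsp-12.3 (WBGene00002012) and hsp-12.6 (WBGene00002013) lie 877 bases apart on the minus strand of chromosome IV; hsp-12.6 is known as a target of DAF-16. hsp-12.3 had 1 count, in CHX replicate 3, and hsp-12.6 had none in any library, so neither could be compared at this depth. Per kb of coding sequence, hsp-12.2 stood at 66.6 ± 12 CPM in CHX and 95.5 ± 13.9 CPM in no CHX animals.

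The muscle-associated members had overlapping groups. hsp-25 lies on chromosome X from 6034463 to 6039496 on the minus strand (WBGene00002023), with 6 exons in the counted transcript. It had 31.3, 57.0 and 60.1 CPM in CHX libraries, against 32.8, 30.6 and 74.2 CPM in no CHX libraries. Both groups held a low and a high library, and no CHX replicate 3 was highest. Means were 49.5 ± 15.8 CPM in CHX and 45.9 ± 24.6 CPM in no CHX animals (SD, n = 3 each), with a fitted log2 fold change of 0.13 (SE 0.45). Without no CHX replicate 3 it was 0.63, and without CHX replicate 3, no CHX replicate 1 or no CHX replicate 2 it was -0.03, -0.06 and -0.11. The transcript overlaps ipp-5 on the other strand by 63 bases.

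hsp-43 also lies on chromosome X, from 6233215 to 6235541 on the minus strand (WBGene00002024), with 7 exons and, at 1179 bases, the longest coding sequence of the 10. It had 28.7, 36.3 and 24.1 CPM in CHX libraries, against 13.1, 55.1 and 10.6 CPM in no CHX libraries. The CHX libraries lay between the high no CHX replicate 2 and the low other no CHX libraries. Means were 29.7 ± 6.17 CPM in CHX and 26.3 ± 25 CPM in no CHX animals (SD, n = 3 each), with a fitted log2 fold change of 0.14 (SE 0.59). Without no CHX replicate 2 the log2 fold change was 1.28, and without CHX replicate 2, no CHX replicate 1 or no CHX replicate 3 it was -0.01, -0.18 and -0.23, so for hsp-43 the direction rested on single libraries. Its left neighbour C14F11.4, 166 bases away on the same strand, fell (log2 fold change -0.74, SE 0.27, adjusted p 0.0434).

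Structural genes of the tissues in which HSP-25 and HSP-43 are found were lower on CHX. The muscle list and those below, like the oocyte list, were chosen with earlier results of these data known. Their calls are given as descriptions. Of 22 body wall muscle genes, all with counts, 21 were tested and 16 were called lower and 0 higher (median log2 fold change -0.64, against 0.02 over all tested genes); 14.9% of all tested genes were called lower. The count was 8 with library totals, 10 with no filter on low counts, 8 without CHX replicate 3 and 9 without no CHX replicate 2. The myosin heavy chain gene myo-3 fell 2.32-fold, the actin gene act-4 1.76-fold and the troponin T gene tnt-2 2.02-fold; the largest adjusted p of these was 1.24e-05. The most abundant muscle gene, the myosin heavy chain gene unc-54, averaged 2579 ± 265 CPM in CHX and 4329 ± 838 CPM in no CHX animals (SD, n = 3 each). The summed level of the list ran from 10814 to 11773 CPM in CHX libraries and from 15059 to 20541 CPM in no CHX libraries. deb-1, for the dense body protein vinculin, was without a call at 166 ± 45.6 CPM in CHX and 182 ± 93.9 CPM in no CHX animals. The part of muscle content in the values of hsp-25 and hsp-43 was not tested.

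Hemidesmosome genes, which attach muscle through the epidermis to the cuticle, were lower in 4 of 7 tested cases and higher in 0, with 1 more, ifa-3, at 0 in every library; 14.9% of all tested genes were lower. let-805 fell 2.10-fold, mup-4 2.15-fold and vab-10 1.74-fold. As a share of the summed body wall muscle level, hsp-25 took 0.433% ± 0.126 in CHX and 0.269% ± 0.194 in no CHX animals, and hsp-43 took 0.261% ± 0.0491 in CHX and 0.137% ± 0.121 in no CHX animals (SD, n = 3 each). The groups overlapped in both shares.

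Ordered by level per kb of coding sequence in CHX animals, sip-1 was followed by hsp-25 (75.3 ± 24.1 CPM per kb), hsp-12.2 (66.6 ± 12), hsp-16.41 (43.4 ± 9.62), hsp-16.2 (40.5 ± 10.1) and hsp-43 (25.2 ± 5.24). The neighbours hsp-25 and hsp-12.2 differed by less than their SD, as did hsp-16.41 and hsp-16.2. In no CHX animals the order was sip-1, hsp-16.2 (161 ± 2.31 CPM per kb), hsp-16.41 (122 ± 61.7), hsp-12.2 (95.5 ± 13.9), hsp-25 (69.8 ± 37.4) and hsp-43 (22.3 ± 21.2). There, hsp-16.2 and hsp-16.41, and hsp-16.41 and hsp-12.2, were within the SD of hsp-16.41, and hsp-12.2 and hsp-25 within that of hsp-25. By these means, among the listed genes, the hsp-16 pair stood behind hsp-25 and hsp-12.2 in CHX animals and next after sip-1 in no CHX animals. Both orders leave out hsp-17, a family gene outside the list. It stood at 80.8 ± 16.6 CPM per kb in CHX and 150 ± 86.6 CPM per kb in no CHX animals.

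Groups did not overlap for 4 of the 7 genes with a count, sip-1, hsp-16.2, hsp-16.41 and hsp-12.2, and for 3 of them with raw library totals. Of these 4, sip-1 was above and the others were below. Among all 13894 genes with a count, 24.3% had groups that did not overlap; among the tested genes, 19.5% had all CHX libraries above and 20.2% all below the no CHX libraries. Since the contrast was known when the genes were picked, nothing is read from the comparison of these shares. The between-library coefficient of variation fitted by edgeR was 14.7% for sip-1, 25.4% for hsp-16.2, 28.6% for hsp-25 and 34.6% for hsp-43, beside 13, 28.9, 27.6 and 31.0% for genes of the same abundance in that order.

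Outside the list, 8 further genes of the family are in the table. Of these, hsp-16.11, hsp-16.49, F08H9.3 and F08H9.4 were at 0 in every library, and hsp-12.1 had 0 counts in CHX and 2 in no CHX libraries. Only hsp-17 was tested. It had 36.6, 28.5 and 43.3 CPM in CHX libraries, against 22.9, 82.7 and 95.4 CPM in no CHX libraries, with no CHX replicate 1 below all CHX libraries and the other no CHX libraries above them, and it was not called (log2 fold change -0.88, SE 0.45, adjusted p 0.159). Without no CHX replicate 1 it was called lower. Y55F3BR.6 averaged 23.5 ± 4.65 CPM in CHX and 25.3 ± 7.22 CPM in no CHX animals, and ZK1128.7 had 15 counts in CHX and 4 in no CHX libraries (ratio 2.90, 95% exact counting interval 0.922 to 12).

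Of 11 genes listed as regulators, 7 were tested, and 1 was higher and 0 were lower, beside 10.3% higher and 14.9% lower over all tested genes. For 3 of the 7, all CHX libraries were above all no CHX libraries, beside 19.5% of all tested genes. For 0 of them all CHX libraries were below, beside 20.2%. With library totals 2 of the 7 were called higher. The gene called with TMM factors was daf-2, the insulin receptor gene that restrains DAF-16, at 238 ± 68.9 CPM in CHX and 148 ± 7.33 CPM in no CHX animals (SD, n = 3 each; log2 fold change 0.68, SE 0.24, adjusted p 0.0347). Its call was lost with DESeq2, when replicate number was a block, and when CHX replicate 1 or 2 or no CHX replicate 1 or 2 was left out. hsf-1, for the heat shock factor, had 81.0, 95.9 and 115 CPM in CHX libraries, against 42.6, 45.9 and 74.2 CPM in no CHX libraries. All CHX libraries were above the no CHX ones, and the difference did not pass the test (log2 fold change 0.85, SE 0.34, adjusted p 0.068). hsb-1, for a protein that binds and restrains HSF-1, missed the filter at 10.9 ± 3.33 CPM in CHX and 4.24 ± 4.63 CPM in no CHX animals. daf-16 was at 224 ± 25.4 CPM in CHX and 229 ± 24.8 CPM in no CHX animals (adjusted p 0.932).

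Of 9 other genes known as DAF-16 targets, 3 were tested, and 1 was higher and 0 were lower, beside 10.3% higher over all tested genes. lea-1, for a desiccation-related protein, averaged 823 ± 49.7 CPM in CHX and 570 ± 165 CPM in no CHX animals (log2 fold change 0.53, SE 0.17, adjusted p 0.0213), a call lost without CHX replicate 1, CHX replicate 2, no CHX replicate 2 or no CHX replicate 3. The most abundant, the glyoxylate cycle gene icl-1, was not called (adjusted p 0.307). scl-1, mtl-1 and ctl-1 were at 0 in every library.

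The list of cytosolic chaperones and genes associated with them showed 3 of 14 tested genes lower and 0 higher. The list's median was -0.31 on the log2 scale. Over all tested genes 14.9% were lower, with a median of 0.02. The BAG-domain gene unc-23 fell 2.31-fold (adjusted p 0.00398), the constitutive HSP70 gene hsp-1 1.26-fold (adjusted p 0.00976) and the DnaJ gene dnj-19 1.52-fold (adjusted p 0.0174). Only 1 of the 14 was lower with library totals, with no filter on low counts, without CHX replicate 2 or without no CHX replicate 3. Of 11 chaperones and proteases of the endoplasmic reticulum and mitochondria, 3 were lower and 0 higher, again beside 14.9% lower over all tested genes. They were the mitochondrial chaperonin gene hsp-60, at 1674 ± 57.6 CPM in CHX and 2831 ± 209 CPM in no CHX animals (SD, n = 3 each; adjusted p 7.90e-06), the disulfide isomerase gene pdi-2 and the endoplasmic reticulum HSP70 gene hsp-3.

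Some chaperone genes had their highest level in no CHX replicate 3, and others did not. Of the called chaperone genes above, hsp-1, dnj-19 and hsp-3 were highest there. By contrast, unc-23 and hsp-60 were highest in no CHX replicate 1, and pdi-2 in no CHX replicate 2. How many of all genes were highest in replicate 3 was not counted. hsp-70, a heat-induced HSP70 gene named after its values were seen, had 60.1, 54.4 and 48.1 CPM in CHX libraries, against 39.3, 49.0 and 156 CPM in no CHX libraries. hsp-4, the endoplasmic reticulum HSP70 induced by unfolded proteins and likewise named afterwards, had 773, 645 and 652 CPM in CHX libraries, against 554, 704 and 1414 CPM in no CHX libraries. Among the small heat shock protein genes, hsp-16.41, hsp-25 and hsp-17 also had their highest level in this library, whereas hsp-16.2 was about equal in all no CHX libraries. In contrast, hsp-43 had its lowest level of all 6 libraries there, at 10.6 CPM, and hsp-12.2 its lowest no CHX level, at 28.3 CPM. Neither hsp-70 (adjusted p 0.344) nor hsp-4 (adjusted p 0.432) was called.

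**Figure D5:**
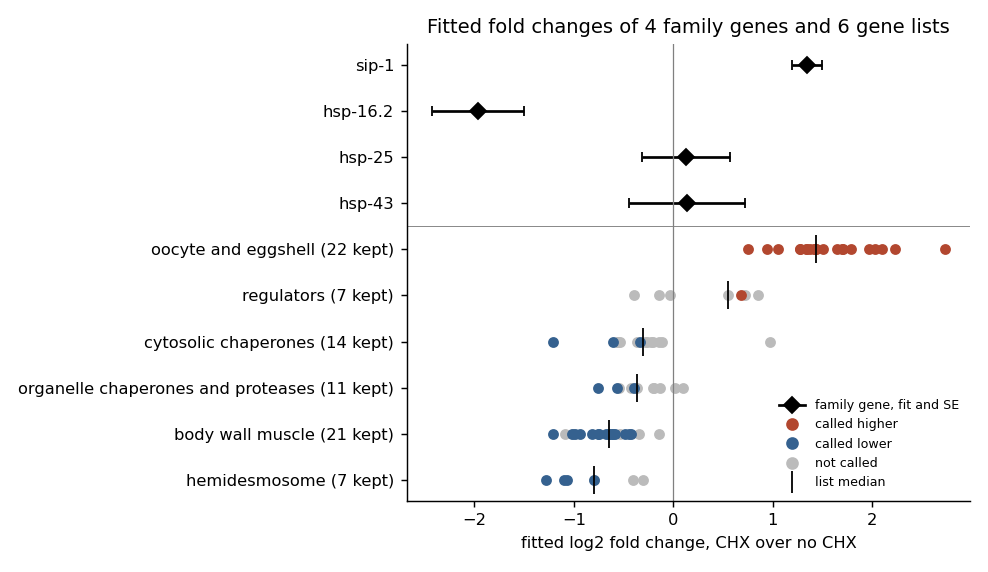
Fitted log2 fold change of CHX over no CHX: diamonds with SE for the 4 tested small heat shock protein genes, and below the line 1 point for each tested gene of 6 lists, coloured by call, with a bar at the list median. sip-1 is at 1.35, and the oocyte and eggshell genes run from 0.75 to 2.73. hsp-16.2 is at -1.96, and the lowest gene of either chaperone list is at -1.21. The family genes were picked with this contrast in view, and hsp-16.2 passed the filter through its no CHX libraries alone. Nothing is therefore read from their places beside the lists.

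The genes whose levels followed each tested member most closely over the 6 libraries were found by Pearson's r of log2 CPM. For sip-1 they were ZK813.7, arid-1 and acs-19 (r = 0.998, 0.997 and 0.995), all of them called higher on CHX. For hsp-16.2 they were R12E2.14, the tyrosine aminotransferase gene tatn-1 and grl-27 (r = 0.999, 0.994 and 0.993), all called lower. For hsp-25 they were alh-11, pnn-1 and ntl-11 (r = 0.959, 0.957 and 0.95), and for hsp-43 they were ZC190.4, pgam-5 and rpn-10 (r = 0.995, 0.992 and 0.977), none of them called. The libraries fall into 2 groups and the values share depth and scaling, so high values are common: of 5637 other tested genes, 453 reached 0.9 with hsp-16.2, 330 with sip-1, 32 with hsp-43 and 17 with hsp-25.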

How the data were processed

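The deposited table holds the authors' raw read counts, 1 transcript for each of 20189 genes. Per the submitters' processing notes the build was WBcel235 and DESeq2 was among the tools. The labels' protocols give ribosomal RNA depletion with RNase H and a SMARTER kit. The sources used here name no aligner, counter, strand setting or rule for reads that match several places. The reads carry no molecular identifiers that would count independent molecules, so intervals and floors cover counting error only.

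Groups and replicate numbers came from the sample titles. The edgeR package (4.0.16, in R 4.3.3) was used with filterByExpr at a minimum count of 10 and a minimum total of 15. This left 5641 genes, which held 94.1% of all counts. Fits were quasi-likelihood and robust, scaled by TMM. Adjusted p-values are edgeR's with Benjamini-Hochberg adjustment over all tested genes, at a threshold of 0.05. SE is the absolute log2 fold change over the square root of F. These steps were also run on counts simulated with the fitted dispersion trend. That run cannot check the dependence on scaling. CPM take as library size the counts in tested genes times the TMM factor. Coding lengths are from Ensembl's WBcel235 gene models (18408 transcripts found; otherwise, as for hsp-12.2, the gene's longest coding transcript). The table carries daf-21 and ifa-2 of the lists as hsp-90 and mua-6. Alternatives were DESeq2 1.42.0, other scalings and filters, each library left out and a replicate block.

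The genes described and all lists were chosen with earlier results of these data known. Named by rule are all 10 members, other family genes with a count, in each list up to 3 called genes per direction by p and the most abundant gene, hsf-1, hsb-1 and daf-16, and the 3 genes closest in pattern to each tested member. Genes at 0, neighbours on the chromosome, deb-1, hsp-70, hsp-4, eef-1A.1 and rpl-26 were added after their values were seen. Figures were drawn with matplotlib 3.10.9.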

Additional observations from a re-analysis of the deposited data

How the results depend on the processing

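Log2 fold changes of sip-1 ran from 1.16 to 1.63 and those of hsp-16.2 from -2.12 to -1.77 when each library was left out in turn; those of hsp-25 ran from -0.11 to 0.63 and those of hsp-43 from -0.23 to 1.28, so neither has a stable direction. Under the other scalings, filters and DESeq2 none of these 4 changed sign; hsp-43 was not kept at a minimum count of 20. With library totals they were 1.51 for sip-1, -1.81 for hsp-16.2, 0.28 for hsp-25 and 0.29 for hsp-43. Genes called over the whole table numbered 1419, of which 984 to 1331 were called when a library was left out, with 383 to 544 higher (383 without CHX replicate 3) and 601 to 804 lower; the cause was not tested. DESeq2 called 1079. Same-numbered samples did not deviate together (correlations -0.047 to -0.011). These values cannot tell if samples of the same number were collected together. A fit with a replicate block called 1225 genes. Of 14 group levels, 1 moved by over 1 SD with raw library totals, that of hsp-16.2 in no CHX animals. Its SD there was only 1.01 CPM. All nonzero no CHX means of the members were lower with raw library totals, for sip-1 871 CPM in place of 983 CPM, within its SD of 308 CPM. Depth limits hsp-12.3, with 1 count; why the hsp-16 copies were at 0 was not tested.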
